A study of Mus musculus with 6 samples.

Results

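Matrix metalloproteinases (MMPs) and tissue inhibitors of metalloproteinases (TIMPs) were followed in primary mouse embryonic fibroblasts (MEFs) treated with TNFα. The group holds 10 genes of the 21837 in the deposited table, listed by symbol with earlier results of these data known. They are Mmp2, Mmp3, Mmp9, Mmp10, Mmp11, Mmp13, Mmp14, Timp1, Timp2 and Timp3. RNA-seq was made from wildtype MEFs of the cross C57BL/6x 129, from littermate embryos of day 13.5, passaged 4 times. The cells were untreated or had received 20 ng/mL of TNFα for 1.5, 6 or 24 hr, with 1 library at each time, and H3K4me3 ChIP-seq with 1 input was made from untreated MEFs.

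MMPs are zinc-dependent proteases that cleave components of the extracellular matrix. Most are secreted as inactive zymogens that other proteases activate, and TIMPs bind the active enzymes and block them. Fibroblasts are a main source of both families in connective tissue, and inflammatory cytokines are known to raise the transcripts of several MMPs through AP-1 and NF-κB.

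Levels are given in the deposited RPKM, which counts reads per length of transcript and per reads mapped, and whose scale is the deposited table's own. Each library has 2 columns, R1 and R2, whose difference is not given in the sources used here. They were not taken as replicates, so no test was possible. A gene is said to have risen or fallen where its mean of R1 and R2 differed at least 2-fold from the untreated library in both columns. The background was 6022 coding genes with a mean of at least 100, among which R1 and R2 of the same library differed by a median of 1.05-fold to 1.09-fold. The 6 hr library stood apart, with 87.4% of these genes below the untreated library. The median log2 ratio of the 6022 genes was 0.44, -0.74 and 0.10 in time order (1.5, 6 and 24 hr), and ratios of the members are also given relative to it. Ratios also ran with GC content. Across 20 bins the median went from 1.42 at the lowest GC content to -0.76 at the highest at 1.5 hr. At 6 hr it went from -0.07 to -0.89, and at 24 hr from 1.01 to -0.98. Only the ratios of members were also centred within these bins. Fibroblast markers were present (9 of 9, summed level 38637 to 81137), while the summed levels of 5 neutrophil markers (2.75 to 10.8) and 5 endothelial markers (0.756 to 5.04) were near 0. In bulk RNA, fewer cells of a type and less RNA per cell cannot be told apart.

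Mmp3, Mmp9, Mmp10 and Mmp13 rose at all 3 times, and by 24 hr they stood 11.7-fold to 30.5-fold above the untreated library. Mmp2 fell at 6 and 24 hr, Mmp11 fell at 6 hr, and Timp1 rose at 24 hr. Mmp14, Timp2 and Timp3 did not pass 2-fold at any time. At 1.5 hr, 4 of 10 members were at least 2-fold higher and 0 were lower, where 29.8% of coding genes were higher and 7.94% lower. At 6 hr the 4 members that were higher stood against 1.84% of coding genes, and the 2 that were lower against 31.5%. At 24 hr 5 members were higher and 1 was lower, where 16.8% of coding genes were higher and 12.8% lower. In total 7 of 10 members passed 2-fold at 1 or more times, close to the 68.2% of coding genes that did, and 6 did so without the 6 hr library, where 43.9% of coding genes did. All 10 members had a mean of at least 100 over the 8 columns, but Mmp9, Mmp10 and Mmp13 were below 100 in the untreated library and reached that mean only through the treated ones.

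**Figure D1:**
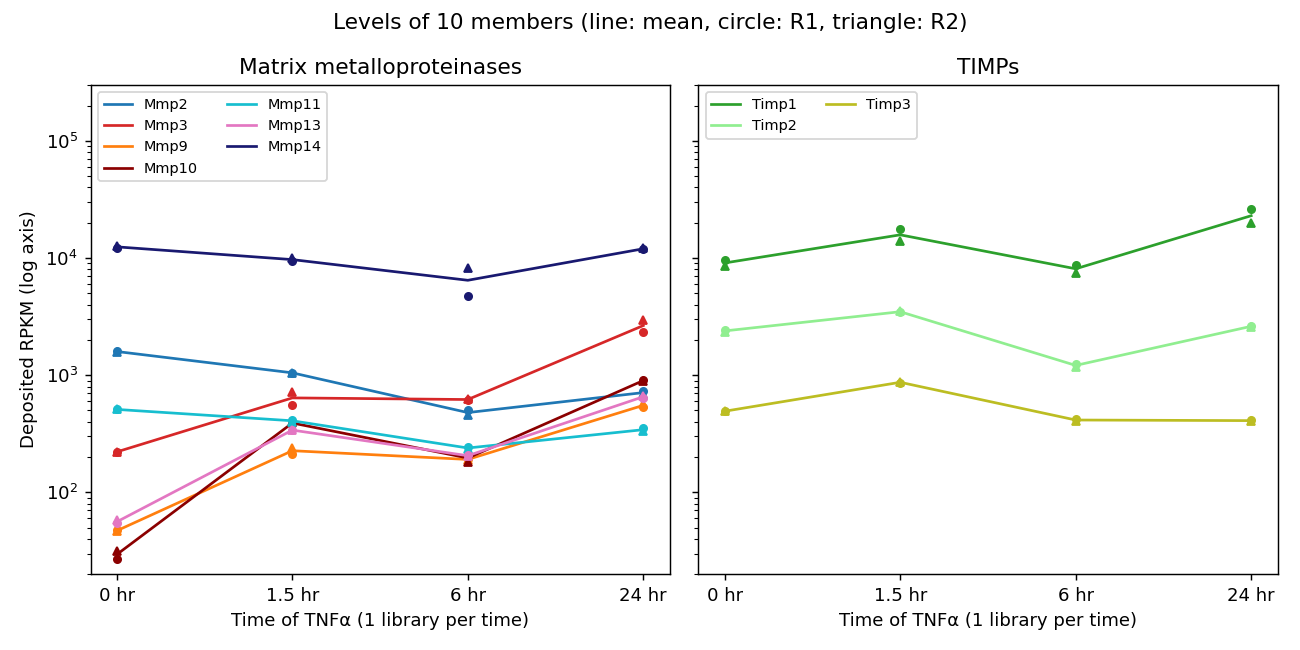
Deposited RPKM (log axis) of the 7 MMPs and 3 TIMPs at 0, 1.5, 6 and 24 hr of TNFα, 1 library per time; lines join the means, circles are R1 and triangles R2. Mmp3, Mmp9, Mmp10 and Mmp13 start as the lowest 4 of the 10 members and reach 553 to 2652 at 24 hr, while Mmp14 and Timp1 are the highest in each library.

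Among the stromelysins, which cleave proteoglycans and other matrix proteins and can activate other MMP zymogens, Mmp3 and Mmp10 rose. Mmp3 (stromelysin 1, chr9:7445822-7455972, with this and all further gene spans on NCBIM37, which is mm9) had a level of 222 untreated, 640 at 1.5 hr, 620 at 6 hr and 2652 at 24 hr. Its 1.5 and 6 hr levels lay close together, and its 24 hr level lay well above both. These levels were 2.89-fold, 2.80-fold and 12.0-fold above the untreated one. The 1.5 hr rise was lost with a correction for base composition: when log2 ratios were centred among genes of like GC content, the log2 ratio of Mmp3 at 1.5 hr was 0.34 in place of 1.53. At 24 hr it was 2.81 in place of 3.58. Mmp10 (stromelysin 2, chr9:7502352-7510238) was the lowest member in the untreated library, with a level of 29.5, and stood at 391 at 1.5 hr, 196 at 6 hr and 900 at 24 hr. These are 13.2-fold, 6.65-fold and 30.5-fold increases. No other member had a larger log2 ratio at any of the 3 times, and 99.9% of coding genes had a smaller one at 24 hr. With centring by GC content, the log2 ratios of Mmp10 were 2.71, 3.26 and 4.30 in place of 3.73, 2.73 and 4.93. Mmp3 and Mmp10 share 206 stretches of 30 bases, 11.6% of those in Mmp3 and 12.2% of those in Mmp10, so reads from these stretches could have been counted for either gene.

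Mmp11 (stromelysin 3, chr10:75385967-75400678), which is activated inside the cell by furin, had levels of 510, 408, 239 and 343 in time order. The 3 treated libraries were all below the untreated one, and only the 6 hr library passed 2-fold, with a log2 ratio of -1.09. Relative to the coding median that ratio was -0.35. Mmp11 therefore did not share the rise of the other stromelysins in any treated library, and it was the lowest member at 24 hr. Its span overlaps Chchd10 on the other strand, which had levels of 184 to 747, and whether the counting used strand is not given in the sources used here.

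Mmp13 (collagenase 3, chr9:7272514-7283333), which cleaves fibrillar collagens, had a level of 56.1 untreated, 340 at 1.5 hr, 206 at 6 hr and 655 at 24 hr. All 3 treated libraries exceeded the untreated one, by 6.06-fold, 3.66-fold and 11.7-fold. At 24 hr its log2 ratio was 3.54, against 3.55 for Mmp9 and 3.58 for Mmp3. With centring among genes of like GC content it was 2.54, and still past 2-fold at each time.

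Mmp3, Mmp10 and Mmp13 lie in 1 cluster on chromosome 9, and the 250 bases before their RefSeq starts are shown because they share the same short motifs. The RefSeq table (GRCm38.p6) held promoters of 8 of the 10 members, all but Mmp2 and Mmp9. The bases below are from the plus strand, 5′ to 3′, at chr9:7445572-7445821 (Mmp3), chr9:7502092-7502341 (Mmp10) and chr9:7272264-7272513 (Mmp13), with the AP-1 motif TGANTCA and the TATA box TATAAA in capitals.
Mmp3: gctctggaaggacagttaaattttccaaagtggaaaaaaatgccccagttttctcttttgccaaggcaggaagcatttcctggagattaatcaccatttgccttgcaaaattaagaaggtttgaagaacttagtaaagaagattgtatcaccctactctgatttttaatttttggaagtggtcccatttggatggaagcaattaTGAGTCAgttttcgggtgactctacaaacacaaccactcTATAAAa
Mmp10: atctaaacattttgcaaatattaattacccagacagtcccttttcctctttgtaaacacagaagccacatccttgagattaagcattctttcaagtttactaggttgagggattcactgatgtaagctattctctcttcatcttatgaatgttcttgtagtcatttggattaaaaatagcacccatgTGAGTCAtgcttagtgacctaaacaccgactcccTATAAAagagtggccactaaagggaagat
Mmp13: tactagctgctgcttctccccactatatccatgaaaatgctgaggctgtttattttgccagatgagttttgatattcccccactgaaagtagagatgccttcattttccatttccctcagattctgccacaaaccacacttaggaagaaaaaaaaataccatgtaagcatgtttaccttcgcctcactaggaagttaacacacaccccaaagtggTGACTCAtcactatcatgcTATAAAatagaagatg
Both strands were searched. Counting back from -1, the base just before the start, the AP-1 motif was at -46 to -40 in Mmp3, -63 to -57 in Mmp10 and -35 to -29 in Mmp13. In each it was followed by TATAAA, at -7 to -2 in Mmp3, -29 to -24 in Mmp10 and -16 to -11 in Mmp13. The distance of TATAAA from the RefSeq start thus differed among the 3 genes, and whether these starts are the ones used in MEFs was not tested. None of the other 5 members in the table had either motif in its 250 bases, and of all 32851 promoters 6.75% had the AP-1 motif and 12.4% had TATAAA. The PEA3 motif AGGAAG was found in 5 of 8 members (Mmp3, Mmp13, Mmp14, Timp1 and Timp3) and in 29.5% of all promoters. The NF-κB motif was found in 0 of 8 members and in 7.25% of all promoters, which says only that its letters are not in these windows. None of the motif matches in these members overlapped another. A match is a description of the letters and not of binding.

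The gelatinases, which degrade denatured collagen and type IV collagen of basement membranes, moved in opposite directions. Mmp9 (gelatinase B, chr2:164766280-164781350) had a level of 47.0 untreated, 227 at 1.5 hr, 191 at 6 hr and 553 at 24 hr. Its increases were 4.82-fold, 4.06-fold and 11.7-fold. Mmp2 (gelatinase A, chr8:95351227-95377316) had a level of 1592 untreated, 1047 at 1.5 hr, 479 at 6 hr and 710 at 24 hr. All treated libraries were lower, and at 6 and 24 hr Mmp2 had fallen 3.32-fold and 2.24-fold. Part of the 6 hr difference was shared with most coding genes: relative to the coding median, the log2 ratio of Mmp2 was -1.05, -0.99 and -1.27 in time order. With centring among genes of like GC content the 24 hr log2 ratio was -0.86, below 2-fold. The quotient of Mmp2 over Mmp9 was 33.8 untreated, and 4.62, 2.51 and 1.28 in the treated libraries in time order. It is taken within each library, so scaling between libraries does not enter it.

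Mmp14 (MT1-MMP, chr14:55050441-55060095), which is anchored in the cell membrane and activates the Mmp2 zymogen, was the most abundant MMP in each library. Its levels were 12449, 9691, 6455 and 11991 in time order. Mean treated and untreated levels differed by less than 2-fold at each time, although in R1 alone the 6 hr log2 ratio was -1.35 (-0.65 in R2). The sign at 24 hr changed with the scaling, from a log2 ratio of -0.05 to 0.08 with centring by GC content. The 6 hr value was the least certain of all members, since R1 and R2 were 4747 and 8162, 1.72-fold apart, whereas 95% of coding genes in that library had columns within 1.32-fold.

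Of the inhibitors, Timp1 rose at 24 hr and the others did not. Timp1 (chrX:20447292-20451861), a secreted inhibitor of most soluble MMPs, had a level of 9073 untreated, 15770 at 1.5 hr, 8091 at 6 hr and 22960 at 24 hr. Its 24 hr level was the highest and its 6 hr level the lowest, with a fold of 2.53 at 24 hr (log2 ratio 1.46 in R1 and 1.20 in R2). At 6 hr the log2 ratio of Timp1 was -0.17 as deposited and 0.57 relative to the coding median, so its sign there depends on the scaling. Timp2 (chr11:118162383-118217054), which binds Mmp14 and the Mmp2 zymogen on the cell surface, had levels of 2386, 3479, 1211 and 2613. Relative to the coding median its log2 ratios were 0.10, -0.24 and 0.03, close to the middle of all coding genes. Timp3 (chr10:85763117-85812251), which is held in the matrix and also inhibits ADAM proteases, had levels of 492, 870, 414 and 409. The 1.5 hr library was above the others, and its log2 ratio of 0.82 became -0.20 with centring by GC content. Syn1 and Syn3, on the opposite strands of Timp1 and Timp3, had levels of at most 89.1 and 5.02.

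**Figure D2:**
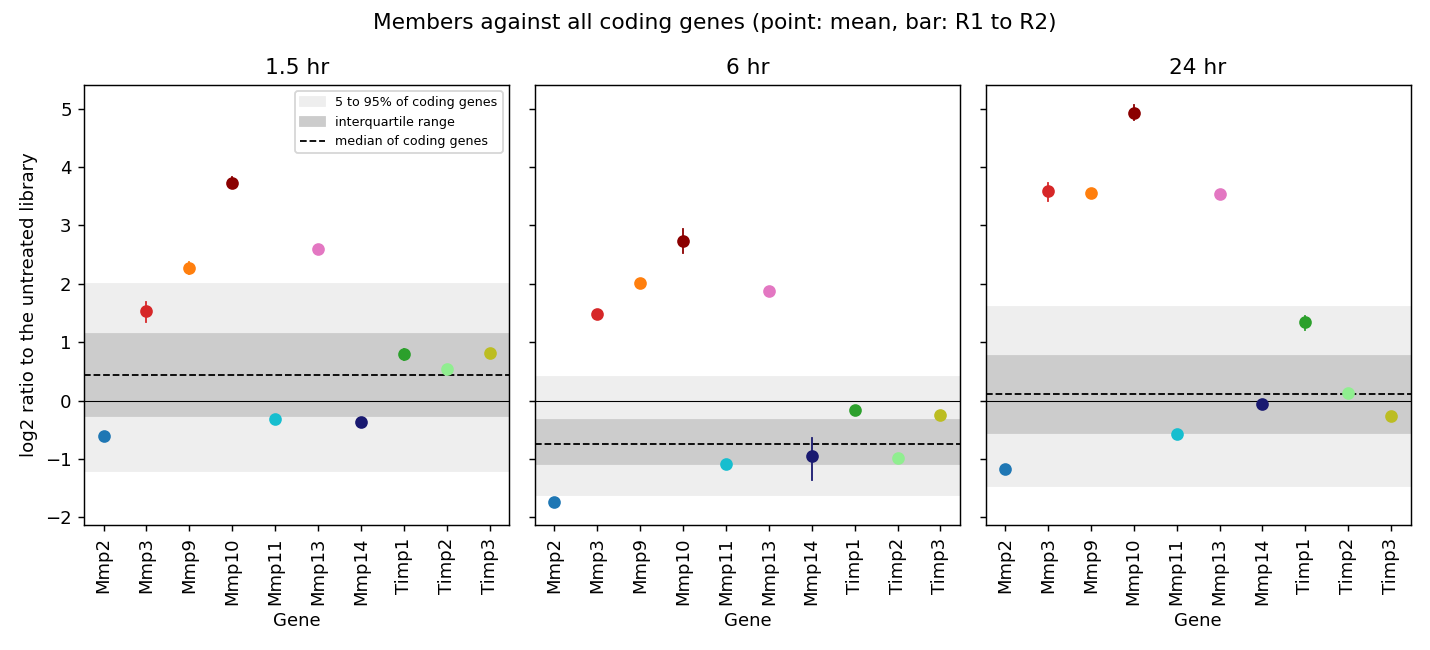
log2 ratio of each member to the untreated library at 1.5, 6 and 24 hr (points, mean; bars, R1 to R2), over the 5 to 95% (light band) and interquartile (dark band) ranges of 6022 coding genes and their median (dashed). Mmp9, Mmp10 and Mmp13 lie above the light band in all 3 panels, Mmp3 lies above it at 6 and 24 hr, and Mmp2 lies below it at 6 hr.

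Relative to the coding median, the 4 rising MMPs had higher log2 ratios at each later time, whereas as deposited their 6 hr ratios were below those at 1.5 hr, by only 0.05 for Mmp3, whose R1 was higher at 6 hr. The relative values were 1.09, 2.22 and 3.48 for Mmp3, and 1.82, 2.76 and 3.45 for Mmp9. For Mmp10 they were 3.28, 3.47 and 4.83, and for Mmp13 they were 2.16, 2.61 and 3.44. From 1.5 to 6 hr the deposited values of these 4 genes thus dropped by less than the median coding gene did. Over the 5 other scalings that were run, their lowest log2 ratios were 1.86 at 6 hr (Mmp3) and 2.54 at 24 hr (Mmp13).

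The order of the members, compared per length, was rearranged by 24 hr. In the untreated library it was Mmp14, Timp1, Timp2, Mmp2, Mmp11, Timp3, Mmp3, Mmp13, Mmp9 and Mmp10, and no neighbours in this order had overlapping columns. At 24 hr it was Timp1, Mmp14, Mmp3, Timp2, Mmp10, Mmp2, Mmp13, Mmp9, Timp3 and Mmp11, where only Mmp3 and Timp2 had overlapping columns. At 6 hr the columns of Timp1 and Mmp14 overlapped, as did those of Mmp13 with Mmp10 and of Mmp10 with Mmp9, so these pairs were not separated. Mmp3 moved from the seventh place to the third.

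Within the summed level of the 7 MMPs, Mmp14 made up 83.5%, 76.0%, 77.0% and 67.4% from the untreated to the latest library. The share of Mmp3, Mmp9, Mmp10 and Mmp13 together was 2.38%, 12.5%, 14.5% and 26.7%, of which Mmp3 gave 14.9% at 24 hr. Mmp2 went from 10.7% to 3.99%. The membrane-anchored enzyme thus held most of the summed MMP level in each library. Within the TIMP sum, Timp1 had 75.9% untreated and 88.4% at 24 hr, and Timp2 had 20.0% and 10.1%.

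**Figure D3:**
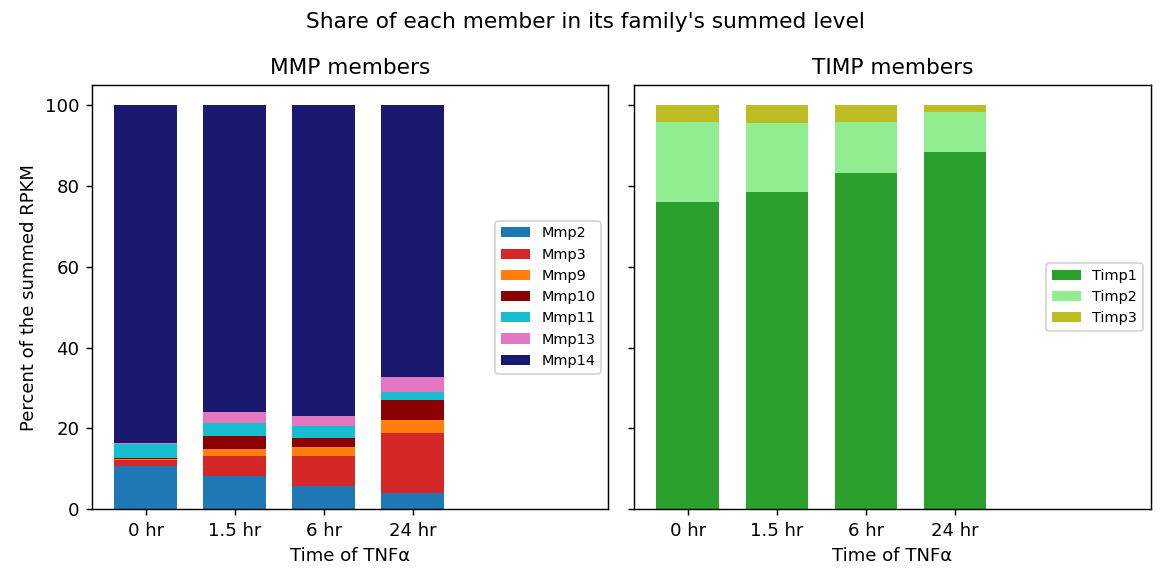
Percent of the summed deposited RPKM held by each of the 7 MMPs (left) and 3 TIMPs (right) at 0, 1.5, 6 and 24 hr, as stacked bars from 0. Mmp14 shrinks from 83.5% to 67.4% as Mmp3 grows from 1.49% to 14.9%, and Timp1 grows from 75.9% to 88.4%.

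The MMP sum over the TIMP sum was 1.25 untreated, and 0.633, 0.863 and 0.685 in the treated libraries. TIMP transcripts exceeded MMP transcripts in each treated library, although at 6 hr the columns disagreed (0.645 in R1 and 1.11 in R2). The 4 rising MMPs approached the inhibitors over time: the TIMP sum exceeded theirs 33.7-fold untreated, and 12.6-fold, 8.01-fold and 5.46-fold after TNFα in time order. Timp1 was 41.0 times Mmp3 untreated and 8.66 times at 24 hr. As deposited, Timp1 and Timp3 kept a similar quotient up to 6 hr (18.4, 18.1 and 19.5) and stood at 56.1 at 24 hr. Quotients of genes that differ in GC content are not free of it. With centring by GC content, the log2 ratios of Timp1 at 1.5 and 6 hr were 0.34 and 0.68, and those of Timp3 -0.20 and 0.28. Those of Mmp3 and Timp1 were then both 0.34 at 1.5 hr, and 2.81 and 1.23 at 24 hr. The quotients are of levels of RNA and not of amounts of protein or of active enzyme.

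**Figure D4:**
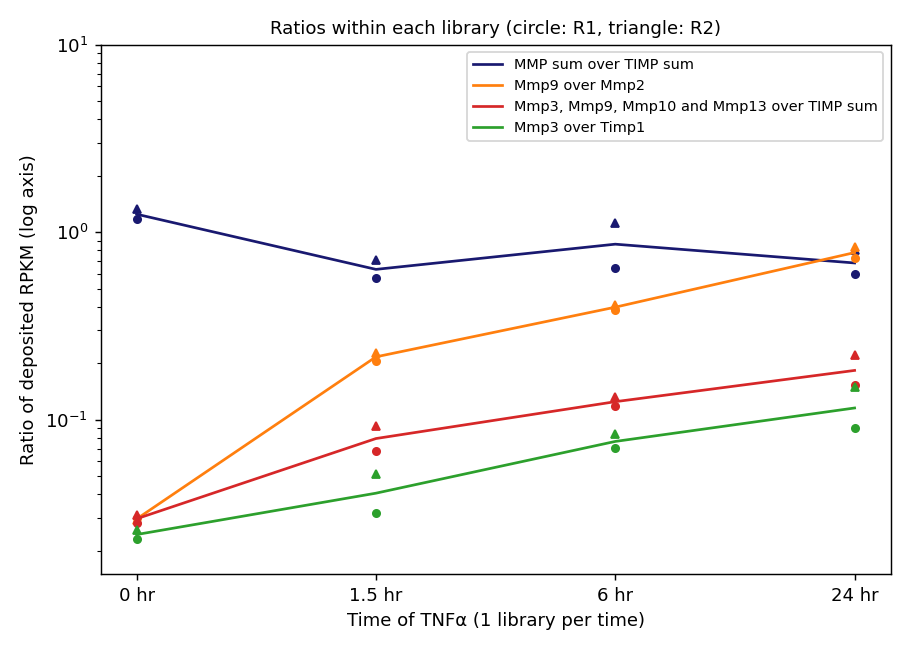
Ratios of deposited RPKM within each library (log axis) at 0, 1.5, 6 and 24 hr; lines follow the mean of R1 and R2, circles are R1 and triangles R2. Mmp9 over Mmp2 goes from 0.0296 to 0.778 and the 4 rising MMPs over the TIMP sum from 0.0296 to 0.183, while the MMP sum over the TIMP sum is highest untreated, at 1.25.

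H3K4me3, a histone mark found at the starts of active or poised genes, separated the members in untreated MEFs. A peak covered the start of 6 of 10 members, Mmp2, Mmp11, Mmp14, Timp1, Timp2 and Timp3, and none lay within 1 kb of the start of Mmp3, Mmp9, Mmp10 or Mmp13. Among 5842 coding genes of the background with an annotated start, 92.4% had a peak within 1 kb. The 4 members with no peak are the 4 that rose at all 3 times, and they were the lowest 4 in the untreated library. Most background genes of like untreated level had the mark: of 108 with untreated levels in the range of Mmp9, Mmp10 and Mmp13, 89 had a peak (82.4%). These 108 had a mean of at least 100, which they reached only through the treated libraries. Other coding genes at that untreated level were not counted. Mmp3, with an untreated level of 222, lay outside that range. Of 5156 background genes with an untreated level of 100 or more, 4774 had a peak (92.6%). Of the 14 other coding genes whose log2 ratio at 24 hr was 3.54 or more, a set chosen after the data were seen, 6 had a peak (42.9%).

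Mmp14 had the most tags of the members, 2915 in a peak of 7377 bp with a fold enrichment of 67.8, more tags than 97.9% of the 11157 peaks. Timp2 (2124 tags over 8130 bp) and Timp3 (1777 tags over 5197 bp) followed. Mmp11 had 823 tags, Timp1 756 and Mmp2 547, all under the median of 1049 tags over all peaks. Timp1, with a level of 9073, thus had fewer tags than Timp3, with a level of 492. The nearest peak was 12033 bp from the start of Mmp9, 85170 bp from Mmp13, 258478 bp from Mmp3 and 260692 bp from Mmp10. Where a gene had several annotated starts, the one closest to a peak was used. For Mmp9, with 2 starts, that was chr2:164773719, inside the span given above, and the peak began at 164785752, past the end of that span. Peaks of low enrichment were not in the list, whose lowest fold enrichment was 20, so weaker marks at these starts were not detectable here.

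**Figure D5:**
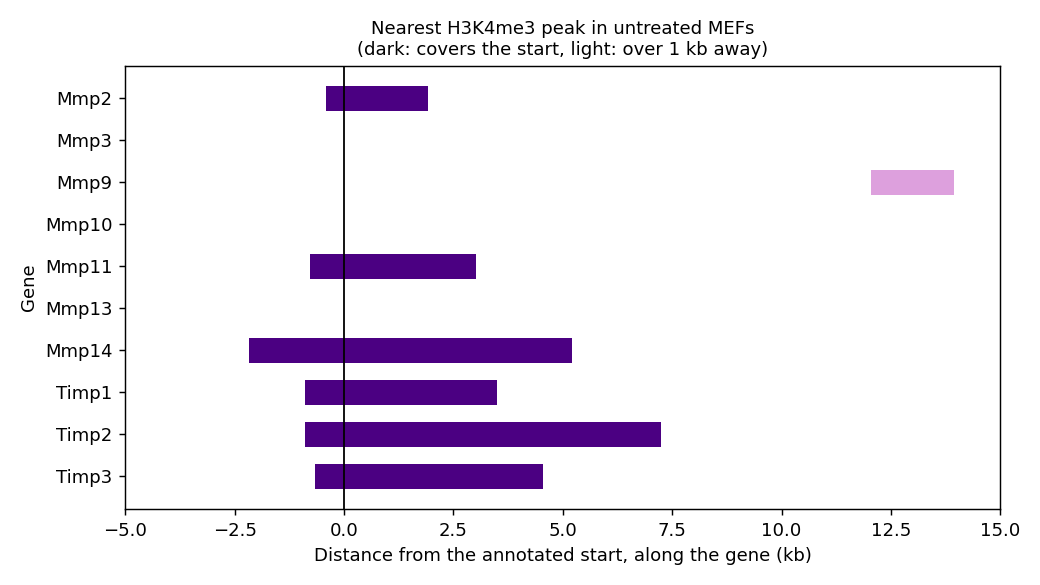
Extent of the H3K4me3 peak nearest to each member in untreated MEFs, in kb along the gene from its annotated start closest to a peak. The window runs from 5 kb before to 15 kb after that start. Dark bars cover the start (6 members), the light bar at Mmp9 begins 12033 bp after the start used, and Mmp3, Mmp10 and Mmp13 have no peak in the window.

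Most of the other MMP and TIMP genes had low levels, and Mmp23 had the highest mean. All 17 are in the table, 2 had a mean of at least 100 (Mmp19 and Mmp23), and 2 were listed at 0 in each library (Mmp7 and Timp4). Mmp23 fell at 24 hr, with levels of 1377, 745, 695 and 454 and a 24 hr log2 ratio of -1.60. Mmp12, the macrophage elastase, was below a mean of 100 but increased from a very low level, at 1.31, 20.2, 12.6 and 60.6, with log2 ratios of 3.95, 3.27 and 5.53, the last above that of Mmp10. Mmp1b, a collagenase-like gene, was lower still, at 0.946, 13.0, 4.37 and 16.6, with a 24 hr log2 ratio of 4.13. Both were named after their values were seen.

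Genes of the plasmin system, which activates MMP zymogens, and other partners of MMPs were measured in the same libraries. Of 14 genes, 8 had a mean of at least 100, of which 5, 0 and 4 were higher in time order, and 1 was lower, at 6 hr. The shares of all coding genes were 29.8%, 1.84% and 16.8% higher and, at 6 hr, 31.5% lower, so 0 of 8 higher at 6 hr is near the background. The median log2 ratio of the 8 was 1.56, -0.13 and 1.07, against 0.44, -0.74 and 0.10 for all coding genes. Cd44, a hyaluronan receptor that docks MMPs at the cell surface, had levels of 201, 1191, 339 and 920. Plau and Plat, which convert plasminogen to plasmin, had log2 ratios of 1.90 and 1.74 at 1.5 hr and of 1.25 and 1.29 at 24 hr. The gene of plasminogen itself, Plg, was listed at 0 in each library. Furin, which activates Mmp11 and Mmp14, fell at 6 hr with a log2 ratio of -1.20 as deposited, where the coding median was -0.74. The values of these 14 genes were not centred by GC content, so its part in their ratios was not tested.

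Of 20 ADAM and ADAMTS proteases, metalloproteinases of related families, 12 had a mean of at least 100. Among these 3 were higher and 3 lower at 1.5 hr, 0 and 4 at 6 hr, and 0 and 3 at 24 hr, with median log2 ratios of -0.04, -0.71 and -0.27, against 0.44, -0.74 and 0.10 for all coding genes. The 3 higher at 1.5 hr and the 4 lower at 6 hr are near the background shares of 29.8% and 31.5%. The other shares of all coding genes were 7.94% lower at 1.5 hr, 1.84% higher at 6 hr, and 16.8% higher and 12.8% lower at 24 hr. Adam17, which sheds TNF from the cell surface, was among the higher ones, with a log2 ratio of 1.21 at 1.5 hr, as were Adam9 (1.20) and Adam12 (1.14). Adam33 fell at all 3 times (-2.52, -1.10 and -2.27), and so did Adam15 (-1.23, -1.41 and -1.63). Adamts10 fell at 1.5 hr (-1.35) and 24 hr (-1.43), and Adamts2, which trims procollagens, fell at 6 hr (-1.90). The values of these proteases were taken as deposited only, and at 6 hr the coding median was itself -0.74.

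Macrophages also express Mmp9, Mmp12 and Mmp13, and macrophage markers were not at 0. Of 10 such markers 9 were in the table, with a summed level of 3597 untreated, 16780 at 1.5 hr, 3310 at 6 hr and 8191 at 24 hr. Most of that was Lyz2, at 2257, 14668, 2692 and 7187, and Cd14 had 62.6, 515, 178 and 387. The other 7 markers summed to 1278, 1597, 439 and 618, and Csf1r, the receptor for the macrophage growth factor, had 295, 287, 90.1 and 124. Of these 7, Ptprc (13.4 to 30.8), Emr1 (26.3 to 74.0) and Mpeg1 (82.1 to 200) were more than 2-fold above untreated at 1.5 hr. Cd68 (605 to 823) and Itgam (41.1 to 64.4) rose less, and Csf1r and Aif1 (215 to 118) were lower. At 24 hr Ptprc, Emr1 and Itgam were slightly above their untreated levels (13.4 to 16.6, 26.3 to 27.3 and 41.1 to 52.4). Cd68 (312), Mpeg1 (62.6), Csf1r and Aif1 (22.9) were then below theirs. Chondrocytes and bone cells express Mmp13 too, and 6 of their markers summed to 319, 175, 145 and 130, while 6 epithelial markers summed to at most 50.8. The part of such cells in the MMP levels was not tested.

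The coding genes nearest to Mmp10 over the 3 log2 ratios, among 6021, were Nfkbia (Euclidean distance 1.13), Rgs16 (1.36), Ccl7 (1.41), Gbp2 (1.44) and Tank (1.53). Mmp13 ranked 8, Mmp9 ranked 10 and Mmp3 ranked 30. Nearest to Mmp2 were Btbd2 (0.0891), Myl6b (0.0963), Gaa (0.135), Rcn3 (0.142) and Ebpl (0.147). The 3 ratios share 1 untreated library, so these distances only describe the 4 libraries.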

How the data were processed

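RNA-seq libraries were poly-A selected, directional and paired end. Reads were mapped by the authors with TopHat to mm9, and the deposited RPKM came from an in-house script of theirs. The deposited RPKM, in 8 columns (R1 and R2 of 4 libraries) over 27794 transcripts, were used as they stand, and their columns were matched to times through the study's list of libraries. Low values were not whole multiples of a read, so no read counts could be recovered from the table, the depth behind each value is unknown here and no interval was computed. The library of 24 hr carries a ChIP protocol in the labels, although its other labels are RNA-seq.

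H3K4me3 reads were mapped with Bowtie, and the authors called peaks with MACS (version not given in the sources used here). The deposited peak list gives tag counts, fold enrichment as a ratio to the local background, a score that is a scaled −log10 of the p-value and an FDR in percent. The highest FDR was 4.61%.

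Per gene the transcript with the highest mean of the 8 columns was kept, R1 and R2 were averaged, and log2 ratios were taken with no pseudocount. Coding genes were NM_ transcripts, 1 per gene, with a mean of at least 100. Gene spans and starts came from GENCODE on NCBIM37, the same build as mm9. Promoters came from RefSeq on GRCm38.p6, and each printed stretch matched NCBIM37 at 1 place. Shared stretches of 30 bases were counted between coding transcripts. Named genes outside the members were, per list, those at least 2-fold changed in both columns with a mean of at least 100, at most 4 in each direction, and the 5 genes nearest to Mmp10 and to Mmp2. Of the genes this rule names, 1 is not reported here. Alternatives tried were other library scalings, centring in 20 bins of GC content, pseudocounts, folds of 1.5 and 3, single columns, and other peak windows. Members and lists were chosen with earlier results of these data known. Python 3.11.15, numpy 2.4.6 and pandas 2.3.3 were used, and the scripts were tested on simulated data.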

Additional observations from a re-analysis of the deposited data

Results flagged for a closer look

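The 3 TIMPs had ratios of opposite sign at different times, in both columns. In time order (1.5, 6 and 24 hr) the log2 ratios of Timp1 were 0.80, -0.17 and 1.34, those of Timp2 were 0.54, -0.98 and 0.13, and those of Timp3 were 0.82, -0.25 and -0.27. With 1 library per time, the differences between times were not tested. Relative to the coding median, Timp1 (0.57) and Timp3 (0.49) were above 0 at 6 hr.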

How the results depend on the processing

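With 1 library per time, differences have no replicate check, and values that share the untreated library are not independent. No paired analysis was possible because each time has 1 library. The rises of Mmp9, Mmp10 and Mmp13 passed 2-fold at each time as deposited and under the 5 other scalings, and that of Mmp3 did except at 1.5 hr with centring by GC content. Falls depended on the scaling. The count of members lower at 6 hr was 0 when libraries were scaled to their sums, by medians of ratios over all or coding transcripts, by a trimmed mean or by GC content, where the deposited values gave 2. Members lower at 1.5 hr numbered 1 (Mmp2) under both medians of ratios, and lower at 24 hr 0 with centring by GC content. A pseudocount of 100, above the untreated levels of 3 members, left 2 higher and 1 lower at 6 hr. A fold of 1.5 gave 1 lower at 1.5 hr and 4 lower at 6 hr, and a fold of 3 gave 1 lower at 6 hr and 0 at 24 hr. The MMP to TIMP quotient at 24 hr was 0.523 without Mmp3, Mmp10 and Mmp13, and at 0 hr it was 1.40 with all measured MMP and TIMP genes. Of the 6 members with a peak, 3 had one above the median of all peaks by tags. Members lower at 6 hr numbered 3 in R1 alone (with Mmp14, -1.35) and 3 in R2 alone (with Timp2, -1.01), and 8 members passed 2-fold at 1 or more times in each column. No direction of a member past 2-fold was reversed under any alternative that was run.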
